A study of Homo sapiens with 24 samples.

Results

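The genes of oxidative phosphorylation were followed in human acute myeloid leukaemia cell lines treated with R406, the active form of fostamatinib and an inhibitor of the kinase SYK. Members were all genes with a single symbol that begins with NDUF, UQCR, COX or ATP5, the SDH subunit genes SDHA to SDHD, and CYC1 and CYCS, each represented by its brightest probe set. The rule found 86 of 12165 measured genes. By their textbook roles they comprised 68 subunits of the respiratory complexes and ATP synthase, 10 assembly factors, 3 subunit isoforms typical of other tissues (COX6A2, COX7A1 and COXFA4L2), the electron carrier CYCS, 2 regulators (COX7A2L and ATP5IF1) and 2 noncoding entries (the pseudogene ATP5MC2P1 and the antisense RNA NDUFB2-AS1). SDHB, UQCRFS1 and UQCR11 were not analysed here, nor were the subunits encoded by mitochondrial DNA.

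Total RNA from the lines KG-1, HL-60, U937 and MOLM-14 was hybridised to Affymetrix HT U133A arrays after 24 h in 4 µM R406 or in DMSO, the vehicle. The dose is that of the treatment protocol, while the design text of the series gives the same figure in mM. Each of the 8 groups had 3 arrays, 24 in all. MOLM-14 and U937 are lines with monocytic features, HL-60 is of promyelocytic type and KG-1 of early myeloblast type. The HL-60 and KG-1 types were each represented by 1 line and the monocytic type by both MOLM-14 and U937, and the labels do not say whether replicates were separate cultures, so p-values measure only the spread between these arrays, which may be technical.

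Oxidative phosphorylation couples the oxidation of NADH and succinate to ATP synthesis at the inner mitochondrial membrane. Complexes I and II pass electrons through ubiquinone to complex III, cytochrome c carries them to complex IV, which reduces oxygen, and complex V (ATP synthase) uses the resulting proton gradient to make ATP. Most subunits are encoded in the nucleus, and assembly factors build the complexes without being part of the finished enzymes.

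Values were intensities, a brightness on a linear scale, and array medians lay between 19.1 and 21.4. The replicate 2 array of KG-1 R406 stood furthest from its group, with a root mean square deviation of 0.27 on the log2 scale against 0.13 to 0.24 on the other 23 arrays, and the main KG-1 counts are given with and without it. The summed intensity of 4 monocytic markers was 188 to 199 in MOLM-14 under DMSO against 2037 to 2150 in U937, so these markers were far dimmer in the libraries labelled MOLM-14. In HL-60 the monocytic sum was 2593 to 2685, so these markers were not brightest in a monocytic line. The sum of 5 promyelocytic markers under DMSO was 10530 to 11221 in HL-60, where MPO was highest (mean 6416). It was also high in U937 (9585 to 9980) and MOLM-14 (7223 to 7824), and 213 to 244 in KG-1. CD34 was bright in KG-1 under DMSO (mean 613) but not in HL-60 (mean 17.95). MEIS1, also an early myeloblast marker, had means of 295 in MOLM-14 and 483 in U937. As the arrays measure bulk RNA, fewer cells with a transcript and less of it per cell cannot be told apart.

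In MOLM-14 and KG-1 most members were lower after R406, and in U937 and HL-60 few changed. In MOLM-14, 54 of 86 members fell and 17 rose (limma, Benjamini-Hochberg adjusted p under 0.05 over all genes), and the members had a median of -0.36 on the log2 scale, against 0.07 for all genes. Of all genes, 25.0% fell and 31.1% rose in this line. In KG-1, 57 members fell and 7 rose with a median of -0.39 against 0.02 for all genes, of which 20.9% fell and 23.6% rose. Without the replicate 2 array of KG-1 R406, 53 fell and 6 rose, and the median was -0.32.

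In U937, 5 members fell and 4 rose, shares near those of all genes, of which 5.43% fell and 6.12% rose. Without DMSO replicate 1 of U937, 2 fell, and without DMSO replicate 2, 1 rose. With each array centred on its median, the U937 split was 8 lower and 2 higher. In HL-60, 9 members fell (10.5%), where 7.97% of all genes fell. COX17 alone rose (1.16%), below the 7.19% of all genes that rose. The count that fell was 3 without R406 replicate 3 of HL-60. Many of the HL-60 differences were small, with a member median of -0.07. In the mean of the 4 lines 56 members fell and 10 rose, where 24.0% of all genes fell and 29.1% rose.

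The arrays themselves show the same order. All 3 R406 arrays lay below all 3 DMSO arrays for 58 members in MOLM-14 (26.1% of all genes), 60 in KG-1 (23.2%), 37 in HL-60 (16.9%) and 21 in U937 (15.8%). They lay above for 21 members in MOLM-14 (31.6% of all genes), 9 in KG-1 (26.6%), 5 in HL-60 (15.9%) and 19 in U937 (18.2%). In U937 the members thus split evenly, while in HL-60 they leaned to lower values that mostly did not pass the test.

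Members are bright genes, and bright genes fell more often. Among the 2254 genes at least as bright as the dimmest subunit (mean intensity 326), a cut-off chosen after the values were seen, 48.0% fell in MOLM-14 and 43.9% in KG-1. The shares of subunits that fell were 66.2% (45 of 68) and 72.1% (49 of 68). The ACTB control of RNA quality shifted in these lines, but also in HL-60. The log2 ratio of the 3' to the 5' ACTB control probe sets was higher after R406 by 0.34 in MOLM-14 and by 0.12 in KG-1, and lower by 0.13 in HL-60 (exact permutation test, 2-sided p = 0.1, the smallest that 3 against 3 arrays allow). In U937 the ACTB difference was -0.04, with SDs of 0.08 under DMSO and 0.10 with R406. In KG-1 the R406 replicate 2 array had the highest ACTB ratio, 0.97, against an R406 mean of 0.85. The matching GAPDH ratio was higher after R406 by 0.08 in MOLM-14 and by 0.10 in KG-1. Its differences in U937 and HL-60 were -0.006 and -0.01. The part of these ratios in the members' differences was not tested.

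**Figure D1:**
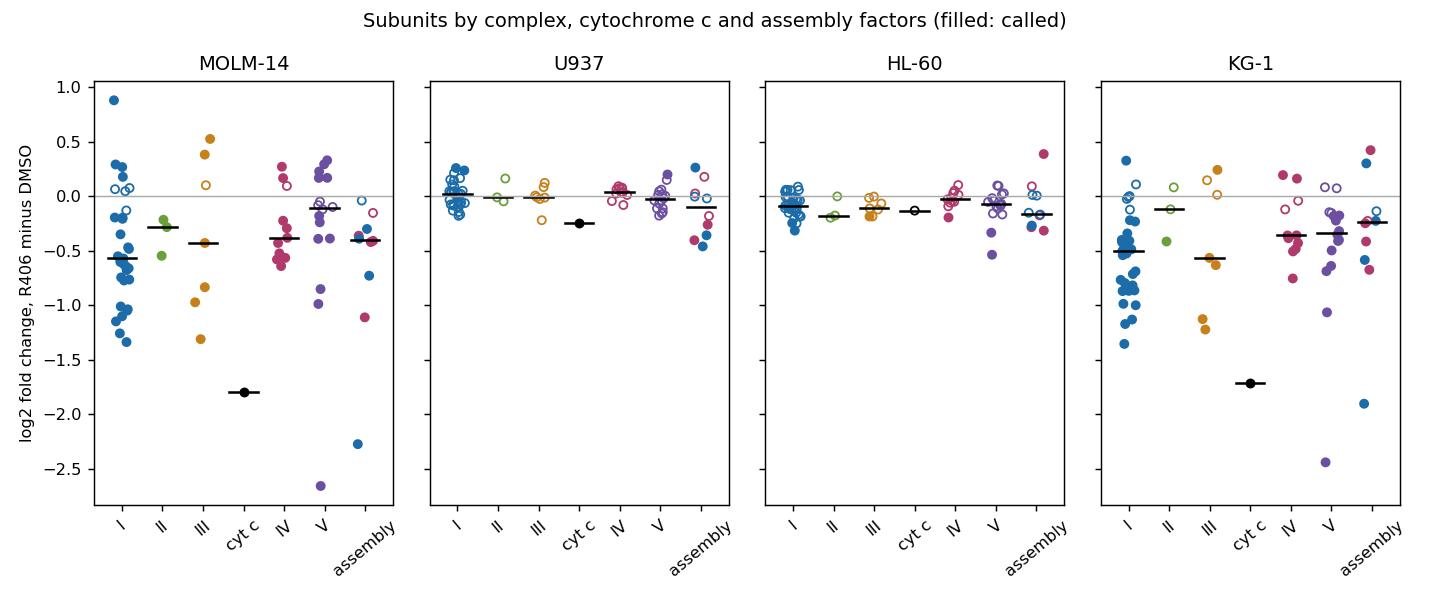
Log2 fold change, R406 minus DMSO (vertical axis), of the 68 subunits by complex, of CYCS (cyt c) and of the 10 assembly factors in each line; filled points passed the test, open points did not, and black bars are medians. The subunit medians are -0.38 in MOLM-14, 0.01 in U937, -0.07 in HL-60 and -0.41 in KG-1.

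Complex I, the NADH dehydrogenase that begins the chain, had the largest number of members. Of its 31 measured subunits, 23 fell and 4 rose in MOLM-14 (median -0.57), and 25 fell and 1 rose in KG-1 (median -0.50, or 24 lower without the replicate 2 array). In U937 none fell (2 at an unadjusted p under 0.05) and NDUFA2 and NDUFB1 rose. These 2 calls are lost without any 1 of the 6 U937 arrays (adjusted p from 0.0608 to 0.117 and from 0.0607 to 0.131). In HL-60 NDUFV1 and NDUFA5 fell, the latter not without any 1 of 5 HL-60 arrays, all but DMSO replicate 2 (adjusted p from 0.0580 to 0.184). The 6 measured core subunits between them carry the flavin and iron-sulphur clusters, though not each of them does. Of these, 5 fell in MOLM-14 and 6 in KG-1, where NDUFS3 is lost without DMSO replicate 3 or R406 replicate 2 (adjusted p = 0.0521 and 0.0987). NDUFS8, a core subunit with iron-sulphur clusters, fell by 1.10 in MOLM-14 and by 0.77 in KG-1 on the log2 scale, and NDUFV1, the flavin-binding subunit, fell by 0.60 and 0.69. The accessory subunits were spread more widely, from NDUFAB1 at -1.34 to NDUFB5 at 0.88 in MOLM-14.

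NDUFAB1, the mitochondrial acyl carrier protein, is both an accessory subunit of complex I and a part of fatty acid synthesis. Its intensities in MOLM-14 were 2703, 2766 and 2610 under DMSO and 1039, 1043 and 1112 with R406. In KG-1 they were 2224, 2370 and 2365 under DMSO and 1138, 908 and 1147 with R406. The groups were far apart in both lines, with log2 fold changes of -1.34 ± 0.07 (SE; adjusted p = 3.14e-13) and -1.13 ± 0.07 (adjusted p = 1.64e-11). In U937 and HL-60 the changes were -0.18 (adjusted p = 0.131) and -0.11 (adjusted p = 0.403).

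NDUFS6, an accessory subunit that binds zinc, had intensities of 1429, 1634 and 1393 under DMSO and 696, 680 and 630 with R406 in MOLM-14. In KG-1 the values were 793, 909 and 936 against 370, 307 and 352. The log2 fold changes were -1.15 ± 0.08 (adjusted p = 2.19e-11) and -1.35 ± 0.08 (adjusted p = 4.14e-12), and no R406 array reached a DMSO array in either line. NDUFA9, an accessory subunit that stabilises the junction of the complex's arms, fell by 1.26 in MOLM-14 and by 0.87 in KG-1.

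NDUFB5, an accessory subunit of the membrane arm, went the other way. In MOLM-14 it stood at 1299, 1214 and 1214 under DMSO and at 2282, 2311 and 2276 with R406, a log2 fold change of 0.88 ± 0.06 (adjusted p = 1.10e-11). In KG-1 it rose from 993, 1135 and 1074 to 1312, 1365 and 1336, a change of 0.33 ± 0.06 (adjusted p = 6.39e-05). The groups did not overlap in either line. In U937 the change was 0.15 (adjusted p = 0.120) and in HL-60 -0.08 (adjusted p = 0.432).

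NDUFB6, also of the membrane arm, fell by 1.05 in MOLM-14 and by 1.00 in KG-1 at its brightest probe set (mean intensity 414). Its other probe set (mean intensity 153) read 0.57 higher and 0.97 higher in these lines, so the direction for NDUFB6 depends on the probe set. NDUFB8, another subunit of that arm, fell by 1.04 and by 0.82, and its second probe set (mean intensity 598) read -1.01 and -0.76. A dim NDUFB8 probe set (mean intensity 47.4) read 0.26 and 0.31 higher. NDUFB7 fell by 0.65 and 0.71, while its dim probe set (mean intensity 8.59) read 0.27 in MOLM-14 and -0.12 in KG-1. NDUFB4 was called in no line, with changes from -0.01 to 0.07.

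Complex II, succinate dehydrogenase, links the citrate cycle to the chain, and 3 of its genes were measured. SDHC, one of its membrane anchors, stood at 1360, 1262 and 1380 under DMSO and at 1017, 920 and 812 with R406 in MOLM-14, and it fell by 0.55 ± 0.11 (SE) on the log2 scale (adjusted p = 0.0001). In KG-1 it stood at 830, 801 and 854 against 660, 534 and 682, and it fell by 0.41 (adjusted p = 0.0022). SDHA, the catalytic flavoprotein, fell by 0.28 in MOLM-14 and was 0.08 higher in KG-1 without passing the test (adjusted p = 0.394). SDHD, the other membrane anchor, fell by 0.21 in MOLM-14, a call lost without DMSO replicate 2 (adjusted p = 0.0743), and was -0.12 in KG-1 (adjusted p = 0.191). No complex II gene passed limma's test in U937 or HL-60, where at an unadjusted p under 0.05 SDHA was higher in U937 and 2 genes were lower in HL-60.

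Complex III, the cytochrome bc1 complex, had 7 measured subunits. In MOLM-14, UQCRQ, CYC1, UQCRC1 and UQCR10 fell and UQCRC2 and UQCRB rose, and in KG-1 the same 4 fell and UQCRB rose. UQCRQ, a small subunit of the membrane part, had intensities of 1531, 1395 and 1387 under DMSO and of 605, 562 and 568 with R406 in MOLM-14. In KG-1 it stood at 670, 670 and 660 against 290, 259 and 309. The log2 fold changes were -1.31 ± 0.06 (adjusted p = 5.20e-14) and -1.22 ± 0.06 (adjusted p = 6.86e-13), with wide gaps between the groups.

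CYC1, cytochrome c1, which hands electrons to cytochrome c, stood at 1854, 1673 and 1652 under DMSO and at 905, 668 and 813 with R406 in KG-1 (-1.13, adjusted p = 1.06e-10). In MOLM-14 it stood at 1265, 1303 and 1354 against 641, 693 and 663 (-0.97, adjusted p = 5.19e-10). In U937 and HL-60 all R406 arrays also lay below the DMSO arrays, but the changes of -0.22 (adjusted p = 0.0921) and -0.18 (adjusted p = 0.151) did not pass the test. UQCRC1 and UQCRC2 are the paired core proteins of the complex, and they parted in MOLM-14. UQCRC1 fell by 0.83, while UQCRC2 rose from 1465, 1436 and 1503 to 2238, 2038 and 2075 (0.53 ± 0.06, adjusted p = 7.58e-08). In KG-1 UQCRC1 fell by 0.63, and UQCRC2 was 0.15 higher with an adjusted p of 0.0501.

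CYCS encodes cytochrome c, the soluble carrier between complexes III and IV, which also triggers apoptosis when it leaves the mitochondrion. In MOLM-14 its intensities were 3243, 3198 and 3197 under DMSO and 980, 868 and 925 with R406. In KG-1 they were 2554, 2525 and 2489 under DMSO and 791, 711 and 804 with R406. CYCS was thus 3.48-fold lower in MOLM-14 (log2 -1.80 ± 0.06, adjusted p = 1.22e-16) and 3.28-fold lower in KG-1 (-1.72 ± 0.06, adjusted p = 1.70e-15). In U937 it fell less, from 4003, 3768 and 3709 to 3255, 3114 and 3350 (-0.24, adjusted p = 0.0116), a call lost without DMSO replicate 1 (adjusted p = 0.0693) or without R406 replicate 2 (adjusted p = 0.0642). In HL-60 the R406 arrays lay below the DMSO arrays but the change of -0.13 did not pass (adjusted p = 0.179).

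Complex IV, cytochrome c oxidase, had 11 measured subunits, all among its nuclear-encoded ones. In MOLM-14, 8 fell and COX4I1 and COX7C rose (median -0.38), and in KG-1, 7 fell and COX7C and COX6B1 rose (median -0.36). COX6B1 is lost there without R406 replicate 2 (adjusted p = 0.0875). COX7B, a small membrane subunit, was lowest in both, at -0.64 and -0.75. COX5A fell in HL-60 too, by 0.19, a call lost without any 1 of DMSO replicates 1 and 2 and R406 replicates 2 and 3 (adjusted p from 0.0827 to 0.116). In U937 no complex IV subunit passed limma's test, and 0 did so at an unadjusted p under 0.05. COX4I1, a regulatory subunit, rose from 4162, 3993 and 4060 to 4530, 4782 and 4417 in MOLM-14 (0.17, adjusted p = 0.0159). That call is lost without DMSO replicate 2 (adjusted p = 0.0551) or without R406 replicate 2 (adjusted p = 0.0734).

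The tissue isoforms were dim, with mean intensities of 28.8 (COX6A2), 7.08 (COX7A1) and 11.2 (COXFA4L2). COX6A2, the form of subunit VIa in heart and skeletal muscle, rose by 0.38 in MOLM-14, while COX6A1, its widely expressed counterpart, fell by 0.29. COX7A1 and COXFA4L2 were called in no line. COX7A2L, which promotes the joining of complexes III and IV into supercomplexes, stood at 720, 765 and 750 under DMSO and at 1038, 1283 and 1099 with R406 in KG-1 (0.61 ± 0.07, adjusted p = 2.10e-07). It was the member that rose most in that line, and its effect there exceeded the mean effect in the other 3 lines by 0.52 (adjusted p = 3.79e-05). COX7A2L also rose by 0.22 in MOLM-14.

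Complex V was divided in MOLM-14, where 7 of its 16 measured subunits fell (43.75%) and 5 rose (31.25%), with a median of -0.11. Those shares were near those of the 2254 bright genes, of which 48.0% fell and 34.5% rose in this line. In KG-1, 12 fell and none rose (median -0.34, and 0 higher at an unadjusted p under 0.05), or 11 lower without R406 replicate 2. Of the bright genes, 43.9% fell and 33.2% rose in KG-1. The catalytic subunit ATP5F1B fell by 0.39 in MOLM-14 and by 0.64 in KG-1, while its partner in the catalytic head, ATP5F1A, was -0.10 and -0.18. The KG-1 value of ATP5F1A passed the test, but not without R406 replicate 2, R406 replicate 1 or DMSO replicate 3 (adjusted p from 0.0568 to 0.0685). All 4 peripheral stalk subunits, which hold the head still, fell in KG-1, and 2 of the 4 fell in MOLM-14. ATP5ME and ATP5MJ, small subunits of the membrane part, rose in MOLM-14 by 0.23 and 0.17 and fell in KG-1 by 0.50 and 0.35. The MOLM-14 call of ATP5MJ is lost without R406 replicate 3 (adjusted p = 0.0546).

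The c subunit, whose ring turns as protons pass, is encoded by ATP5MC1, ATP5MC2 and ATP5MC3, which give the same mature protein with different import sequences. These paralogs did not move together. ATP5MC1 had intensities of 623, 615 and 628 under DMSO and of 88.0, 129 and 81.7 with R406 in MOLM-14. In KG-1 it stood at 594, 654 and 614 against 117, 99.9 and 125. It was 6.32-fold lower in MOLM-14 (log2 -2.66 ± 0.11, adjusted p = 2.93e-15) and 5.43-fold lower in KG-1 (-2.44 ± 0.11, adjusted p = 6.03e-14), the lowest fold change of the 86 members in each. In HL-60 it fell from 464, 481 and 492 to 325, 340 and 326 (-0.54, adjusted p = 0.00143), and in U937 600, 585 and 576 stood against 534, 527 and 519 (-0.16, adjusted p = 0.465).

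ATP5MC3 fell by 0.85 in MOLM-14, from 2608, 2521 and 2597 to 1462, 1380 and 1439. In KG-1 it fell by 0.69, from 2844, 3170 and 2883 to 1898, 1731 and 1894. ATP5MC2 was higher in MOLM-14, with 2840, 2725 and 2792 under DMSO and 3476, 3337 and 3438 with R406 (0.29 ± 0.05, adjusted p = 5.57e-05). In the other 3 lines it was between -0.05 and 0.07 and did not pass the test. The effect of R406 differed between lines for all 3 paralogs (limma F test of the interaction; adjusted p = 2.56e-12 for ATP5MC1, 2.63e-07 for ATP5MC3 and 0.00138 for ATP5MC2). The ATP5MC2 value rests on 1 bright probe set, and its other one, at an intensity of 8.27, read -0.23 in MOLM-14. ATP5IF1, the inhibitor that stops ATP synthase from running in reverse, rose by 0.26 in MOLM-14 (adjusted p = 0.0219), a call lost without DMSO replicate 1 (adjusted p = 0.0999) or R406 replicate 3 (adjusted p = 0.119).

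**Figure D2:**
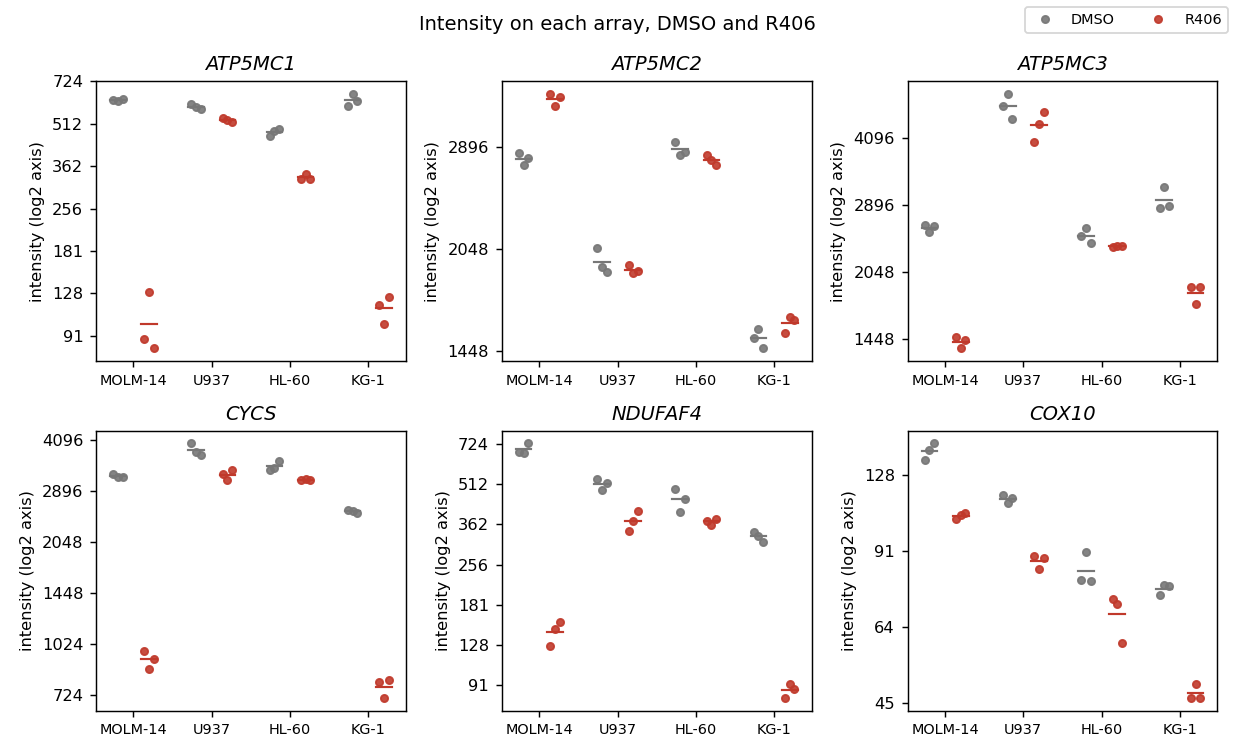
Intensity on each array (points; vertical axes on a log2 scale, with a range of their own in each panel) and group means (bars) for 6 members, DMSO in grey and R406 in red. ATP5MC1 falls from 615 to 628 under DMSO to 81.7 to 129 with R406 in MOLM-14, while ATP5MC2 is higher with R406 there, and COX10 is lower with R406 in each of the 4 lines.

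Assembly factors fell with the subunits in MOLM-14, where 8 of 10 fell and none rose (0 at an unadjusted p under 0.05; median -0.40), and in KG-1, where 6 fell and 2 rose (median -0.24), or 5 and 2 without R406 replicate 2. Some were also called in the lines where subunits mostly were not, though several of these calls rest on few arrays. In U937, 4 of 10 assembly factors fell and 1 rose, while none of 68 subunits fell and 3 rose (limma; 5 lower and 9 higher at an unadjusted p under 0.05). Of the 4, NDUFAF7 is lost without any 1 of the 6 U937 arrays (adjusted p from 0.0555 to 0.0867). COX11 is lost without any 1 of 4 U937 arrays (adjusted p from 0.0669 to 0.231). In HL-60, 3 fell and 1 rose. The 3 lower calls (NDUFAF4, COX10 and COX11) are all lost without R406 replicate 3 of HL-60 (adjusted p from 0.0536 to 0.0736). The median of the subunits minus that of the assembly factors was 0.01 in MOLM-14, 0.11 in U937, 0.09 in HL-60 and -0.17 in KG-1. On the 58 members with a probe set of neither the _s nor the _x type the difference was -0.012 in U937.

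NDUFAF4, an assembly factor of complex I, had the second lowest fold change in both MOLM-14 and KG-1. Its intensities in MOLM-14 were 679, 674 and 729 under DMSO and 126, 146 and 156 with R406 (4.84-fold lower, log2 -2.27 ± 0.09, adjusted p = 6.64e-16). In KG-1 they were 340, 329 and 310 against 80.7, 91.3 and 87.6 (3.74-fold lower, -1.90 ± 0.09, adjusted p = 6.18e-14). In U937 they were 537, 487 and 518 against 342, 374 and 406.2 (-0.46, adjusted p = 0.000975). In HL-60 the values of 493, 402 and 453 against 374, 361 and 380 gave -0.27 (adjusted p = 0.0370), a call lost without DMSO replicate 1 (adjusted p = 0.187), DMSO replicate 3 (0.0971), R406 replicate 1 (0.0810), R406 replicate 2 (0.119) or R406 replicate 3 (0.0684).

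COX10, which makes the heme A precursor of complex IV, was lower in every line. It went from 137, 143 and 148 to 105, 106 and 108 in MOLM-14 (-0.42, adjusted p = 2.06e-05) and from 117, 113 and 115 to 88.6, 83.3 and 87.8 in U937 (-0.40, adjusted p = 0.000545). In HL-60 it went from 79.2, 89.9 and 79.0 to 72.9, 71.3 and 59.6 (-0.28, adjusted p = 0.0073), and in KG-1 from 74.1, 77.5 and 77.3 to 46.4, 49.5 and 46.4 (-0.67, adjusted p = 3.68e-08). The HL-60 call is lost without DMSO replicate 2 (adjusted p = 0.0599) or without R406 replicate 3 (adjusted p = 0.0736).

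COX11, which delivers copper to complex IV, fell in all 4 lines by between 0.25 and 0.36, and NDUFAF4, COX10 and COX11 were the 3 members of 86 called lower in every line. The share of all genes called lower in every line was not counted, so this count is a description only. Several COX11 calls rest on few arrays: the U937 call (adjusted p = 0.0354) is lost without DMSO replicate 1 (0.0669), DMSO replicate 2 (0.0888), DMSO replicate 3 (0.118) or R406 replicate 1 (0.231), and the HL-60 call without R406 replicate 3 (0.0536). In KG-1 the COX11 call is lost without R406 replicate 2 or DMSO replicate 2 (adjusted p = 0.0542 and 0.0611), and its dimmer probe set (mean intensity 101) read 0.32 higher there. With the probe sets averaged COX11 was 0.036 in KG-1 (adjusted p = 0.807), so its direction in that line depends on the probe set.

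COX17, the copper chaperone that supplies COX11, moved in opposite directions. In HL-60 it rose from 977, 955 and 981 to 1283, 1269 and 1263 (0.39 ± 0.09, adjusted p = 0.00335). In MOLM-14 it fell from 622, 599 and 592 to 444, 485 and 436 (-0.41, adjusted p = 0.000364), and in KG-1 from 409, 476 and 463 to 368, 275 and 375 (-0.41, or -0.27 without R406 replicate 2). The groups did not overlap in these 3 lines, and the effect in HL-60 exceeded the mean effect in the other 3 lines by 0.65 (adjusted p = 2.04e-05). COX16, a small assembly factor of complex IV, was dim. It stood at 39.5, 30.2 and 35.4 under DMSO and at 18.2, 14.8 and 14.03 with R406 in MOLM-14 (-1.11, adjusted p = 9.64e-09), and it was -0.23 in KG-1 (adjusted p = 0.111).

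Promoter sequences of 6 members are shown because these genes span the range from the lowest fold change to no call. They are from RefSeq on GRCh38.p14, from 160 bases before to 10 after the annotated start. ATP5MC1 lies at chr17:48892627-48892796 on the plus strand, NDUFAF4 at chr6:96897882-96898051 on the minus strand, CYCS at chr7:25125251-25125420 on the minus strand and UQCRQ at chr5:132866482-132866651 on the plus strand. COX10 lies at chr17:14069344-14069513 and NDUFB4 at chr3:120596176-120596345, both on the plus strand, and NDUFB4 was chosen after its values were seen. Capitals mark matches, on either strand, to 4 motifs of factors known from promoters of this pathway: the palindromic NRF1 motif, the ETS motif CCGGAAG that GABP binds, the E-box CACGTG that MYC and other factors bind, and the YY1 motif, which holds an ATGG core.
ATP5MC1: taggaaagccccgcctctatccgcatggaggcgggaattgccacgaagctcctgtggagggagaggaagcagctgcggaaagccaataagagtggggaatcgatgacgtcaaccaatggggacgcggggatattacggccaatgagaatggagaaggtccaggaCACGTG
NDUFAF4: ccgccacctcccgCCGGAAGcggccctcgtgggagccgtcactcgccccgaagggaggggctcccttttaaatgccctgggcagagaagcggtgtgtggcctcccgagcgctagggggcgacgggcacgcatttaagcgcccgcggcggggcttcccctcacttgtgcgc
CYCS: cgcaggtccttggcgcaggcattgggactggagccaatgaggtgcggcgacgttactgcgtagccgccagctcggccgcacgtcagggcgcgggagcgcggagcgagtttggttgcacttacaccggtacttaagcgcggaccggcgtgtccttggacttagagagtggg
UQCRQ: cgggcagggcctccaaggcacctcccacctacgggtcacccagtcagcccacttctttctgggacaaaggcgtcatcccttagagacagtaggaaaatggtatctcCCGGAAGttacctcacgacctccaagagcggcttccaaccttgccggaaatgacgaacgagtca
COX10: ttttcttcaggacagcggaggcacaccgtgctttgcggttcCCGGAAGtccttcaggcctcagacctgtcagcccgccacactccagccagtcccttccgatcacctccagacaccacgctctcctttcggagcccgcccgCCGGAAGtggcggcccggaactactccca
NDUFB4: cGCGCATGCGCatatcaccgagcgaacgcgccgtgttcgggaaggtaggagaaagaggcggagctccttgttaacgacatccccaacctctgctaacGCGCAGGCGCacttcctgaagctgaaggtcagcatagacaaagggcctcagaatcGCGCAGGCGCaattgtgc

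Over 300-base windows, from 250 bases before to 50 after the start, 72 of the 86 members had a promoter in the reference table. The NRF1 motif was in 19.4% of them (14 of 72) and in 6.28% of all 27305 promoters, and the ETS motif in 29.2% (21 of 72) and 10.7%. The YY1 motif was in 19.4% (14 of 72) against 2.26%, and the E-box in 9.72% (7 of 72) against 7.43%. In MOLM-14 the median log2 fold change was -0.25 for the members with the NRF1 motif and -0.34 for those without, and -0.29 and -0.30 for the ETS motif. In KG-1 the medians with and without the motif were -0.38 and -0.39 for NRF1 and -0.41 and -0.34 for ETS. For the E-box they were -0.24 and -0.30 in MOLM-14 and -0.42 and -0.38 in KG-1. Members with the YY1 motif had medians of -0.52 in MOLM-14 and -0.54 in KG-1, against -0.21 and -0.28 without it. In U937 the YY1 medians were -0.06 and 0.02, and in HL-60 -0.12 and -0.06. These differences were not tested, and the 27305 promoters were not limited to the measured genes. The printed stretch of NDUFB4 held 3 NRF1 matches and that of CYCS none of the 4 motifs, and since these genes were chosen by their fold changes, nothing about the response is read from them.

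MOLM-14 and KG-1 shared most of their lower members. Both called 48 members lower, which is 88.9% of the 54 in MOLM-14 and 84.2% of the 57 in KG-1. Of all 86 members, 62.8% were called lower in MOLM-14 and 66.3% in KG-1, so a large overlap is likely from these counts alone. The overlap of calls over all genes was not counted. Across the 86 members the fold changes of the lines correlated with r = 0.87, and across all 12165 genes with r = 0.69; genes within a line share arrays and are not independent replicates. Both called 4 members higher, and 4 members (ATP5MC2P1, ATP5ME, ATP5MJ and NDUFAF7) were called in opposite directions. NDUFAF7, a methyltransferase that assembles complex I, fell by 0.39 in MOLM-14 and rose by 0.30 in KG-1, a call lost without DMSO replicate 1, DMSO replicate 3 or R406 replicate 3 (adjusted p from 0.0738 to 0.0944). ATP5MC2P1, whose calls are lost without MOLM-14 R406 replicate 2 (adjusted p = 0.0860) or without KG-1 R406 replicate 1, R406 replicate 2 or DMSO replicate 1 (from 0.0516 to 0.0721), is a pseudogene of ATP5MC2, and how far its probe set reads the parent gene was not tested.

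**Figure D3:**
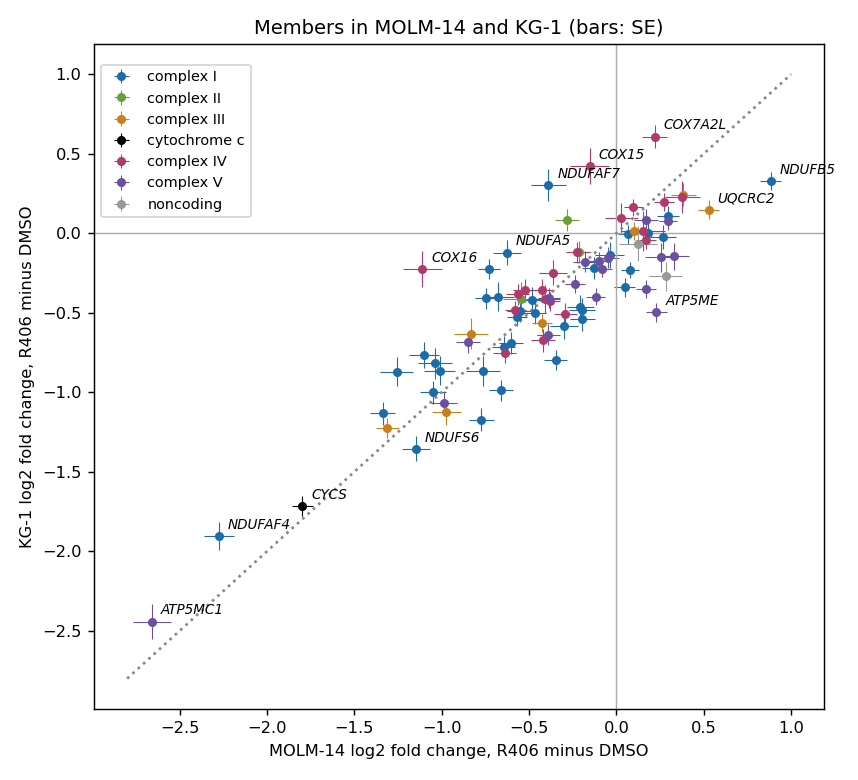
Log2 fold change, R406 minus DMSO, in MOLM-14 (horizontal axis) and KG-1 (vertical axis) for the 86 members, coloured by complex, with SE bars and the line of equal change dotted. ATP5MC1, NDUFAF4 and CYCS lie lowest in both lines, and COX16 lies at -1.11 in MOLM-14 and -0.23 in KG-1.

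The size of the response differed between lines for 66 of 86 members (limma F test of the interaction, adjusted p under 0.05), where 54.9% of all genes differed. Against the mean of the other 3 lines, the effect was lower in MOLM-14 for 41 members and higher for 14, where 22.3% and 23.6% of all genes were. In KG-1 it was lower for 48 and higher for 3 (15.0% and 15.4% of all genes), 51 in all, or 44 without R406 replicate 2. In U937 it was higher for 44 and lower for 4 (16.8% and 14.9%), and in HL-60 higher for 37 and lower for 6 (17.9% in each direction). Since the 4 contrasts share the same effects, they are not separate evidence. ATP5MG, a small membrane subunit of ATP synthase, and COX6B1, a complex IV subunit that faces the space between the membranes, were the 2 members positive in all 4 lines whose mean passed the test, at 0.13 (adjusted p = 0.00388) and 0.09 (adjusted p = 0.0090). The COX6B1 call is lost with each array centred on its median (0.065, adjusted p = 0.0576).

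Before treatment the lines already differed in these genes. Under DMSO, 79 of 86 members differed between lines (limma F test), where 68.1% of all genes did, and the median range over the 4 line means was 0.59 on the log2 scale. KG-1 had the lowest level of the 4 lines for 44 of 86 members, U937 and HL-60 for 17 each, and MOLM-14 for 8. The highest level was in MOLM-14 for 30 members, in HL-60 for 27, in U937 for 19 and in KG-1 for 10. How often each line was lowest or highest over all genes was not counted, so a trait of these genes cannot be told from a general one. CYC1 and COX6C, a small complex IV subunit, were highest in KG-1. CYC1 was 1726 ± 111 (SD, n = 3) in KG-1 against 794 ± 13.2 to 1307 ± 44.96 in the other lines. COX6C was 6434 ± 213 against 3777 ± 112 to 4067 ± 72.5.

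ATP5F1D, a central stalk subunit of ATP synthase, was 641 ± 23.0 in MOLM-14 under DMSO, 322 ± 17.6 in U937, 279 ± 3.95 in HL-60 and 210 ± 6.03 in KG-1 (adjusted p = 5.49e-15). NDUFA7, an accessory subunit of complex I, followed the same order, with 964 ± 29.5, 652 ± 26.4, 566 ± 31.3 and 297 ± 15.2. U937 was highest for ATP5MC3 (4825 ± 310) and ATP5MF (2395 ± 113), where the lowest lines had 2468 ± 90.8 (HL-60) and 840 ± 35.3 (KG-1). HL-60 was highest for NDUFA2 (1228 ± 7.57 against 439 ± 25.2 in KG-1) and COX17 (971 ± 13.8 against 449 ± 35.6 in KG-1). MOLM-14 was highest and KG-1 lowest for ATP5F1D and NDUFA7, but these genes were chosen for standing furthest above the other lines in MOLM-14. Over all members, the median log2 level minus the mean of the other lines was 0.10 in MOLM-14 and 0.13 in HL-60. It was -0.02 in U937 and -0.20 in KG-1, so by these medians MOLM-14 was not at an end. By counts it was, as MOLM-14 was the highest line for the most members (30, against 27 in HL-60) and the lowest for the fewest (8). Whether the level before treatment bears on the response was not tested.

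**Figure D4:**
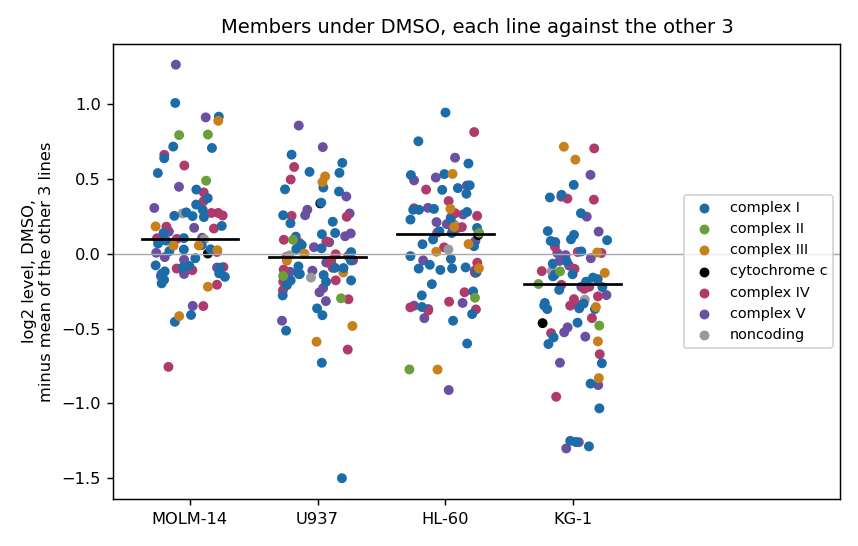
Log2 level under DMSO in each line minus the mean of the other 3 lines (vertical axis) for the 86 members, coloured by complex, with medians as black bars. The medians are 0.10 in MOLM-14, -0.02 in U937, 0.13 in HL-60 and -0.20 in KG-1.

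Other genes of mitochondrial metabolism were counted in 4 lists. Of 15 measured genes of the citrate cycle and pyruvate dehydrogenase, which feed the chain with NADH and succinate, 12 fell in MOLM-14, 11 in KG-1, 4 in U937 and 3 in HL-60, and none rose in any line (limma; 1 in U937 at an unadjusted p under 0.05). DLST, the succinyltransferase of the oxoglutarate dehydrogenase complex, fell in all 4, from 459, 558 and 517 to 131, 100 and 127 in MOLM-14 (-2.09), and by 0.40 in U937, 0.31 in HL-60 and 1.48 in KG-1. DLAT, its counterpart in pyruvate dehydrogenase, also fell in all 4 lines, by 1.45, 0.42, 0.30 and 1.34 in the same order, and IDH3A, of isocitrate dehydrogenase, fell in MOLM-14 (-1.57), U937 (-0.40) and KG-1 (-1.34).

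Of 10 carriers and porins, 8 fell and 1 rose in MOLM-14 and 8 fell in KG-1, while 2 fell in U937 and 1 in HL-60. VDAC1, the main pore of the outer membrane, fell from 1416, 1503 and 1470 to 442, 403 and 431 in MOLM-14 (-1.78) and by 1.39 in KG-1. SLC25A1, the citrate carrier, fell by 1.18 and 0.35, and SLC25A13, an aspartate and glutamate carrier, by 0.53 and 0.88. Of 12 assembly factors outside the naming rule, 7 fell in each of MOLM-14 and KG-1, while 3 and 2 rose. SCO2, a copper chaperone of complex IV, fell by 1.64 and 1.41, and BCS1L, which inserts the iron-sulphur protein of complex III, by 1.29 and 0.95. SURF1, a complex IV assembly factor, rose from 300, 281 and 276 to 797, 773 and 753 in MOLM-14 (1.44) and by 0.69 in KG-1 and 0.38 in U937.

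Of 16 regulators and factors of mitochondrial DNA expression, 11 fell and none rose in MOLM-14 (0 at an unadjusted p under 0.05), 9 fell and 1 rose in KG-1, 7 fell in U937 and 6 in HL-60. MYC, a transcription factor with many targets in growth and mitochondrial metabolism, had 3853, 4122 and 4004 under DMSO and 366, 381 and 398 with R406 in MOLM-14 (-3.38). It fell by 2.11 in KG-1, by 0.80 in U937 and by 0.62 in HL-60. PPRC1, a coactivator of the PGC-1 family, fell by 2.26, 1.69, 0.34 and 0.33 in MOLM-14, KG-1, U937 and HL-60, and TWNK, the mitochondrial DNA helicase, had changes of -2.43, -1.29, -0.45 and -0.60. The transcription factor genes NRF1 and YY1 changed less: NRF1 fell by 0.28 in MOLM-14 and rose by 0.32 in KG-1 (-0.0100 with its probe sets averaged), and YY1 fell by 0.19 in MOLM-14 and was not called in the other lines.

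Lineage markers changed with R406 too. Of 5 promyelocytic markers, the granule proteins of early granulocytes, 4 fell in MOLM-14 (median -1.05) and 4 in HL-60 (median -1.78), where the members had a median of -0.07. In U937 AZU1 alone rose, and in KG-1, where these markers were dim, 2 rose and CTSG fell. Their summed intensity went from 7223 to 7824 under DMSO to 4423 to 4776 with R406 in MOLM-14 and from 10530 to 11221 to 5848 to 6360 in HL-60. All 3 myeloid markers rose in MOLM-14 (median 0.47), and PTPRC alone rose in each other line, while CEBPA fell in KG-1. Of 4 monocytic markers, 2 rose and MNDA fell in MOLM-14, and 2 rose in U937, 3 in HL-60 and 2 in KG-1. Of 3 early myeloblast markers, MEIS1 rose in MOLM-14 and U937, none was called in HL-60 (limma; 0 at an unadjusted p under 0.05), and 2 rose in KG-1.

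Some markers of other cell types were called in MOLM-14 and KG-1. Of 16 measured, 5 rose in MOLM-14 (3 without R406 replicate 2), and 6 rose and 1 fell in KG-1 (5 and 1 without R406 replicate 2). Of all genes, 31.1% rose in MOLM-14, so the count there was near that share. In KG-1 23.6% of all genes rose and 20.9% fell. The summed intensity of these markers went from 290 to 307 under DMSO to 443 to 466 with R406 in MOLM-14. In KG-1 it went from 487 to 517 to 809 to 980. NKG7 was the brightest of them in both lines, and COL3A1, a fibrillar collagen, rose in KG-1 from 6.57, 7.70 and 7.90 to 134, 185 and 96.6. In U937 none was called (limma; 1 higher at an unadjusted p under 0.05), and in HL-60 NKG7 alone fell. The part of these marker changes in the members' response was not tested.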

How the data were processed

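The table deposited for the series holds 1 intensity per probe set and array on a linear scale, made by the authors with RMA, per the submitters' processing notes, which give no version. Other settings and the annotation build are not given in the sources used here. The 22277 probe sets were named from the platform annotation: 62 controls, 1923 with no symbol and 568 with several symbols (10 of them matching the naming rule) were left out, and the brightest probe set stood for each of 12165 genes. Of the 86 members, 44 rest on a probe set of the _s or _x type, which can match several transcripts.

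Deposited intensities were taken as log2(intensity + 1) and fitted with limma 3.58.1 (R 4.3.3; 8 group means, 24 arrays, 16 residual degrees of freedom), with Benjamini-Hochberg adjustment over all genes and a call at an adjusted p under 0.05, so that fold changes of dim genes are understated. Contrasts were R406 minus DMSO per line, their mean, an F test between lines, each line against the other 3, and an F test of DMSO levels. The script was tested on simulated data. The number of arrays limits the precision. Arrays with the same replicate number did not deviate together, so no block was used.

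Members and lists were chosen with earlier results of these data known. Genes given in full were, in each line, up to 5 highest and 5 lowest called members with non-overlapping groups, the leading members of the mean, of the difference between lines and of the DMSO levels, a set of role genes, and up to 3 genes per list. NDUFB4, NDUFB6, NDUFB8, COX7B, NDUFS8, NDUFV1, ATP5F1A, ATP5F1B, ATP5ME, ATP5MJ, UQCRC1, UQCR10, COX5A, NRF1, YY1, NDUFB7, NKG7, COL3A1, PTPRC, CEBPA, AZU1, CTSG, MNDA and MEIS1 were added after their values were seen. Alternatives were quantile normalization, median centring, a pseudocount of 16, omission of the lowest tertile of genes by mean intensity, averaged probe sets, only probe sets of neither the _s nor the _x type, a replicate block, array weights, an intensity trend, each line alone and each array left out.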

Additional observations from a re-analysis of the deposited data

Results flagged for a closer look

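The effect of R406 differed between the 4 lines for 66 members (limma F test of the interaction, adjusted over all genes). The 8 with the widest spread of fold changes were ATP5MC1 (adjusted p = 2.56e-12), NDUFAF4 (2.30e-12), CYCS (6.08e-14), UQCRQ (3.05e-12), NDUFS6 (9.07e-10), NDUFAB1 (2.88e-10), COX16 (4.42e-06) and NDUFA9 (9.45e-08). ATP5MC1 ranged from -2.66 in MOLM-14 to -0.16 in U937, a spread of 2.50 on the log2 scale. COX16 ranged from -1.11 in MOLM-14 to 0.09 in HL-60, and it was the only 1 of the 8 that did not pass the test in KG-1.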

How the results depend on the processing

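Of the members called lower, NDUFB6 and NDUFB7 turned to 0.57 and 0.27 in MOLM-14 and NDUFB6 to 0.97 in KG-1 on probe sets of neither the _s nor the _x type, and COX11 turned to 0.036 in KG-1 on averaged probe sets. The other lower calls in MOLM-14 and KG-1 kept their direction under the alternatives in which they could be fitted. The counts of lower calls in these lines moved by over 1.5 times only on probe sets of neither the _s nor the _x type, which leave 58 of the 86 members. There, 33 fell in MOLM-14, 34 in KG-1 and 34 in the mean of the lines, 33 differed in KG-1 against the other 3 lines and 49 differed under DMSO; U937 had 1 higher and 2 lower and HL-60 4 lower. Median centring gave 2 higher and 8 lower in U937 and 3 higher in KG-1. A pseudocount of 16 gave 7 higher in U937 and 14 lower in HL-60, array weights 10 higher and 9 lower in U937, an intensity trend 8 lower in U937 and 14 lower in HL-60, and fits on 1 line alone 5 lower in HL-60 and 4 higher in KG-1. With the replicate number as a block U937 had 1 higher and 3 lower and HL-60 5 lower. The deviations of same-numbered arrays from their group means correlated between -0.08 and 0.07, so no large shared effect was seen. Whether the numbers pair the samples is not said. The block could not be fitted for the DMSO levels. The cause of these shifts was not tested, apart from the fewer members on the probe sets of neither type.

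The MOLM-14 median of the members was -0.23 under quantile normalization, -0.32 with a pseudocount of 16, -0.38 without the lowest tertile of genes, -0.27 on averaged probe sets and -0.32 on probe sets of neither type. The KG-1 median was -0.32, -0.47 and -0.28 under quantile normalization, median centring and probe sets of neither type, and the U937 median -0.034 under centring and -0.012 on those probe sets. The subunit median minus the assembly factor median in MOLM-14 was 0.10 under quantile normalization, -0.020 with a pseudocount of 16, 0.11 on averaged probe sets and 0.22 on probe sets of neither type, where it was -0.012 in U937, 0.0068 in HL-60 and -0.038 in KG-1; in U937 it was 0.19 without the lowest tertile of genes. ATP5MC2 turned to -0.23 in MOLM-14 on probe sets of neither type, where its mean over lines was -0.073, and its mean was -0.0013 on averaged probe sets. COX4I1 turned to -0.17 in MOLM-14 on probe sets of neither type.

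With each array left out in turn, the members called higher numbered 13 to 17 in MOLM-14, 1 to 5 in U937, 1 in HL-60, 6 to 9 in KG-1 and 9 to 11 in the mean, and those called lower 50 to 55 in MOLM-14, 2 to 7 in U937, 3 to 11 in HL-60, 53 to 58 in KG-1 and 54 to 58 in the mean. The U937 count of higher calls was lowest without DMSO replicate 2 and that of lower calls without DMSO replicate 1, and the HL-60 count of lower calls was lowest without R406 replicate 3. Members that differed between lines numbered 65 to 70, and the difference of the subunit and assembly factor medians ran from 0.0023 to 0.036 in MOLM-14, 0.074 to 0.14 in U937, 0.021 to 0.11 in HL-60, -0.19 to -0.12 in KG-1. The medians of the members ran from -0.38 to -0.31 in MOLM-14, -0.011 to 0.0077 in U937, -0.08 to -0.07 in HL-60, -0.44 to -0.32 in KG-1.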
